A study of Drosophila melanogaster with 10 samples.

Results

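Male and female genital imaginal discs of the wild-type Drosophila melanogaster strain Berlin were compared directly on 5 arrays, the Berlin part of a series of 10 arrays whose other 5 compare the sexes in the wild-type strain Canton S. An array was included by its title, which gives the strain and a replicate number from 1 to 5. Each array is a 2-colour hybridisation of a male and a female sample of discs from late in the third instar, dissected after the gut had cleared from larvae reared at 25 °C. A collection window of 2 to 5 h is given for the samples of every array. Each RNA sample was extracted from a pool of about 50 to 100 discs, and according to the design text the replicates are biologically independent. By the channel labels of the samples, the male sample carried the dye Cy3 on replicates 1, 2 and 3 and Cy5 on replicates 4 and 5, with the female sample in the other dye. The design text instead describes Cy5 on 3 and Cy3 on 2 male samples of a strain, which holds for Canton S but not for Berlin by these labels. The labels were followed, and every statement on dye orientation rests on them. Neither sex was treated beyond this, and no mutant or transgene is named in the labels.

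The genital disc is the unpaired larval primordium of the genitalia, the analia and the internal ducts of the reproductive tract. It contains a female and a male genital primordium and an anal primordium, and in each sex the genital primordium of the other sex is held back. The sex determination gene doublesex, acting with the Hox gene Abdominal-B, sets which primordium grows, and mesodermal and tracheal precursor cells enter the male disc. The disc is also the tissue from which the male genital structures that differ between Drosophila species arise.

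The probes on these arrays are identified by printing plate and well. A reference table of genes held none of these identifiers (0 matches), so probes are described by their identifiers and ratios, with no gene name, sequence or function. The labelled tissue and the sexes could not be checked against marker transcripts for the same reason. In whole discs, fewer cells of a type and less RNA per cell cannot be told apart.

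A value is the deposited log ratio of the channels, taken as base 2, so that a value of 1 is a 2-fold difference between the sexes. Berlin arrays had a value for 4194 to 6323 of 15744 probes. A probe was kept when at least 3 of the 5 arrays had a value for it, which held for 4752 probes. Of these, 4347 had values in both dye orientations and were tested. The other 405 had values on replicates 1, 2 and 3 only, so that dye and sex cannot be told apart for them. Of the 10992 probes not kept, 8662 had no value on a Berlin array and 2330 had 1 or 2.

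The sign of the ratio is not settled by the labels. The sample descriptions word the comparison as female to male, so a positive value likely stands for a higher level in female discs, and the positive and negative sides are named here by the deposited sign. The sources used here do not give whether the values were turned for the dye swap. Across probes, all 10 pairs of Berlin arrays had a positive Pearson correlation. It ran from 0.42 to 0.70 for the 6 pairs of opposite dye orientation and from 0.58 to 0.86 for the 4 pairs of the same orientation. Spearman correlations over the same probes were lower, from 0.02 to 0.44 for opposite pairs and from 0.46 to 0.67 for pairs of the same orientation. Over the probes that the test below did not call, opposite pairs had Pearson correlations of 0.03 to 0.33 and Spearman correlations of -0.14 to 0.28, against 0.40 to 0.61 and 0.37 to 0.62 for pairs of the same orientation. Probes of an array share its labelling and hybridisation, so these correlations are descriptions. On the Pearson correlations over all probes, the values were read as already turned to one direction on all arrays, which remains an assumption. If they were instead Cy5 over Cy3, the dye term of the same fit would carry the sex effect, and the calls below would be dye effects. For the dye term limma called 0 probes on the deposited values, with 312 at an unadjusted p below 0.05. It called 422 once every array was scaled to the same median absolute value.

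The large ratios were lopsided on every Berlin array before any test. Of all probes with a value, 44.9%, 46.8%, 47.6%, 47.4% and 50.2% were above 0 on replicates 1 to 5. On replicate 2, 194 probes lay above a log2 ratio of 2 and 8 lay below -2. On replicate 3 the counts were 303 and 7, on replicate 4 they were 290 and 24, and on replicate 5 they were 285 and 19. Replicate 1 had 829 above and 530 below, with a far wider spread on both sides. The share of probes above 2 minus the share below -2 was 5.44 ± 1.16 percentage points (SD, n = 5) and was positive on 5 of 5 arrays. A two-sided exact sign-flip permutation test gave p = 0.0625, the smallest p that 5 arrays allow.

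On replicates 4 and 5 the positive probes stood apart from the bulk. Replicate 4 had 94 probes with a log2 ratio between 1 and 2, then 123 between 2 and 3 and 110 between 3 and 4, a second rise in the distribution. Replicate 5 had 146, 162 and 86 in the same intervals. The counts fell steadily on replicate 2, with 354, 145 and 27, and on replicate 3, with 398, 213 and 76. On the negative side replicate 4 had 140 probes between -2 and -1 and 13 between -3 and -2, with no second rise. The second rise was thus seen on both arrays whose male sample carried Cy5 and on none of the 3 whose male sample carried Cy3. Dye and the separate samples of these arrays cannot be told apart in this shape.

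**Figure D1:**
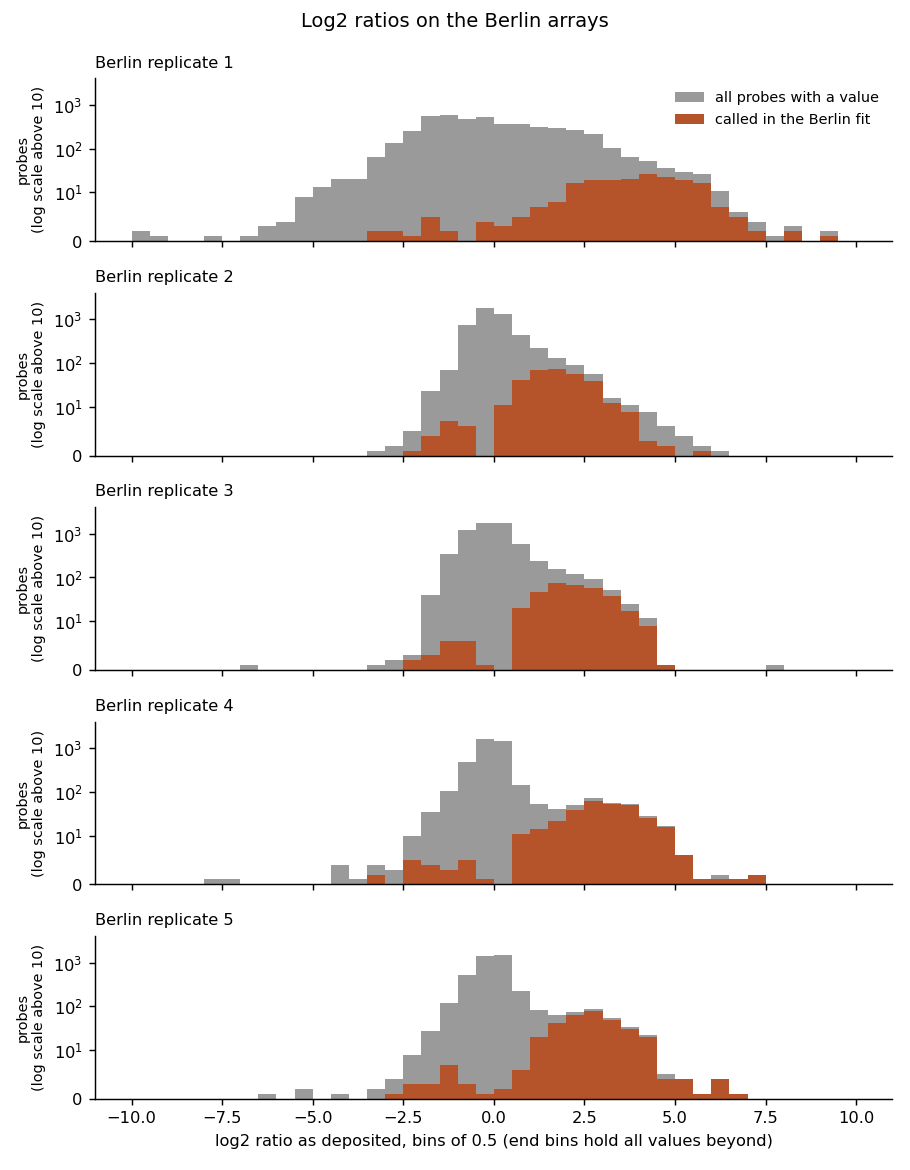
Distribution of the deposited log2 ratios on each of the 5 Berlin arrays, in bins of 0.5, with the number of probes on a vertical axis that is linear up to 10 and logarithmic above. Grey bars count all probes with a value and orange bars those called in the Berlin fit. Replicates 4 and 5 show a second rise between 2 and 4, and replicate 1 is wider than the others on both sides.

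Across the 5 Berlin arrays, 354 of 4347 tested probes (8.14%) differed between male and female discs at a Benjamini-Hochberg adjusted p below 0.05 in limma's moderated test. The ratio was positive for 336 of them (7.73% of the tested probes) and negative for 18 (0.414%). The median log2 ratio of the positive probes was 2.62, or 6.15-fold, and the quartiles lay at 4.15-fold and 9.47-fold. The 18 negative probes had a median of -1.35, a 2.55-fold difference. Without a test, all tested probes had a median of 0.01, and 277 stood at 2 or more against 6 at -2 or less.

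Large differences were almost all positive. Of the 336 positive probes, 331 were estimated at 2-fold or more, 254 at 4-fold or more, 116 at 8-fold or more and 26 at 16-fold or more. Of the 18 negative probes, 15 were at 2-fold or more, 4 at 4-fold or more and 0 at 8-fold. The positive estimates ran from 0.84 to 5.69 on the log2 scale and the negative ones from -2.64 to -0.83. The typical 95% interval of a positive probe reached 0.81 on the log2 scale to either side of its estimate, and that of a negative probe 0.58. Another 23 probes had estimates of 2 or more that did not pass the test, and 2 had estimates of -2 or less.

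The balance of the sides depended on how the arrays were weighted. Positive probes made up 94.9% of the calls on the deposited values, 64.3% once every array was scaled to the same median absolute value (478 positive and 265 negative) and 69.0% with limma's array weights (473 and 213). With array weights, which gave replicate 1 a weight of 0.09 and the others 0.95 to 2.65, 353 of the 354 calls were kept. With 1 array left out, 3793 to 4208 probes were tested, against 4347 with all 5. The number of calls also rested on single arrays, most of all on replicates 4 and 5, whose male sample carried Cy5. It fell to 32, all positive, without replicate 4 and to 132 without replicate 5, where 1 array was left in that orientation. It was 186 without replicate 3. Without replicate 1, the wide array, 497 probes were called, of which 74 were negative.

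**Figure D2:**
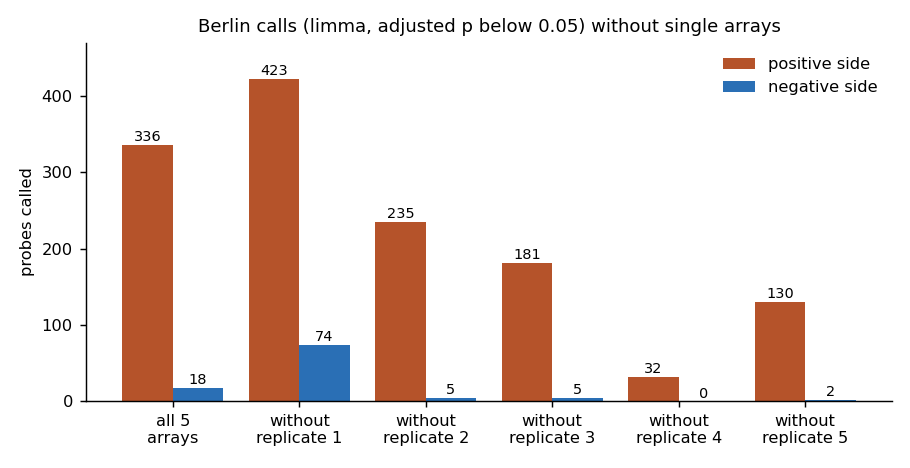
Number of probes called on the positive side (orange) and the negative side (blue) in limma's test, with all 5 Berlin arrays and with each array left out in turn. The bars fall to 32 and 0 without replicate 4 and rise to 423 and 74 without replicate 1.

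Nearly all called probes had the same sign on each Berlin array that measured them. This held for 332 of the 336 positive probes and 17 of the 18 negative ones, against 860 of 3993 probes that were not called. Calls are selected for a steady ratio, so these shares describe the calls and do not test them. The size of the ratio varied between arrays more than its sign did. The median over the positive probes was 4.13 on replicate 1, 1.75 on replicate 2, 2.12 on replicate 3, 3.04 on replicate 4 and 2.73 on replicate 5. Replicate 1 was thus the highest and replicate 2 the lowest. Among the 186 positive probes with values on all 5 arrays, replicate 1 held the highest value for 142 (76.3%) and replicate 2 the lowest for 130 (69.9%).

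The calls were made on the mean of both dye orientations, so the medians of each orientation describe the calls and do not test them. The median over the positive probes of the mean log2 ratio was 2.37 where the male sample carried Cy3 and 2.89 where it carried Cy5. For the negative probes the same medians were -1.30 and -1.65. The mean was farther from 0 with the male sample in Cy5 for 245 of the 336 positive and 11 of the 18 negative probes, against 949 of the 3993 probes not called and 1205 of all 4347 tested. Replicate 1 measured 199 of the 336 positive probes. For the others the Cy3 mean rests on replicate 2, replicate 3 or both. These medians and counts thus mix dye with missing arrays, and the part of each was not tested. The dye term itself was called for 0 of 4347 tested probes (0%), with a smallest limma adjusted p of 0.614. At an unadjusted p below 0.05 it stood at 48 of the 336 positive probes (14.3%), against 6.59% of those not called. Once every array was scaled to the same median absolute value, the dye term was called for 422 probes.

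**Figure D3:**
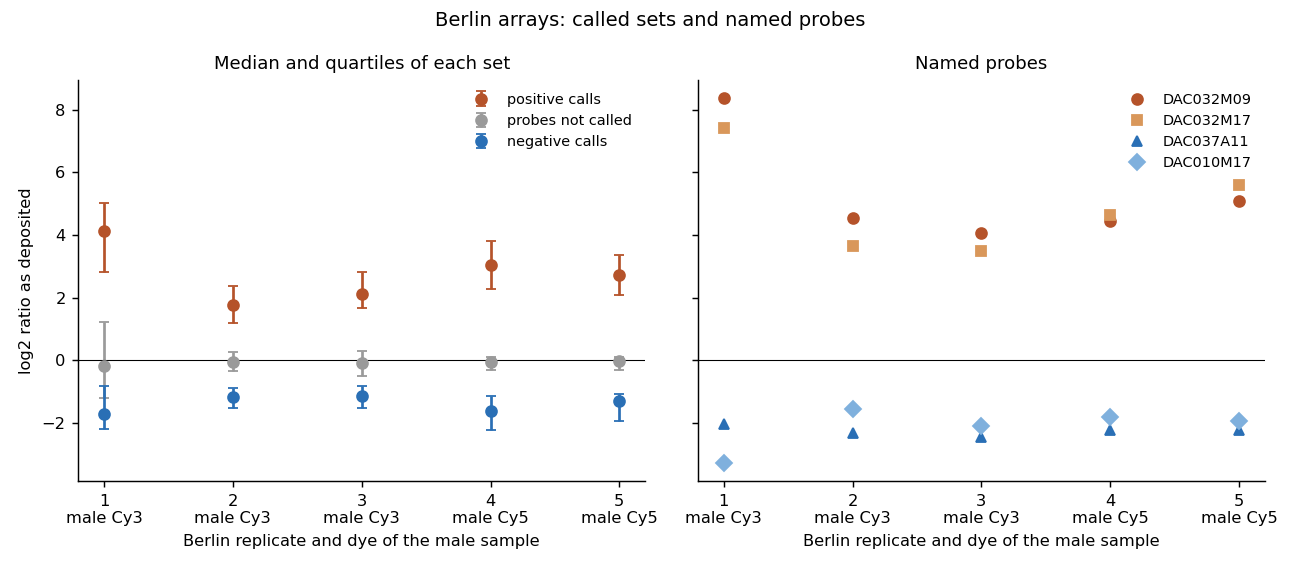
Left, median and quartiles of the log2 ratio on each Berlin array for the positive calls (orange), the negative calls (blue) and the probes not called (grey). Right, the values of the 4 named probes on each array, with the dye of the male sample under each replicate number. The quartiles of the called sets lie on opposite sides of 0 on all 5 arrays, and both positive probes are highest on replicate 1.

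The probe with the highest ratio among called probes measured on all 5 arrays was DAC032M09, in well M09 of plate 32. Its log2 ratios were 8.37, 4.52, 4.07, 4.45 and 5.07 on replicates 1 to 5. All were far above 0, with replicate 1 well above the other 4. The estimate was 5.21 ± 0.65 (SE), a 37.0-fold difference, with a limma adjusted p of 0.00927. This probe had no value on any Canton S array.

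DAC032M17, in well M17 of the same plate, followed with log2 ratios of 7.40, 3.65, 3.47, 4.63 and 5.59 on replicates 1 to 5. Replicate 1 was again the highest and no value was below 3. Its estimate was 4.98 ± 0.62 (SE), a 31.5-fold difference (limma adjusted p = 0.00927). In Canton S its values were 2.33, 6.30, 3.05, 6.04 and 0.87 on replicates 1 to 5, a wider range on the same side (limma adjusted p = 0.00769).

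By the same rule the lowest negative probe was DAC037A11, in well A11 of plate 37, with log2 ratios of -2.03, -2.31, -2.46, -2.22 and -2.23 on replicates 1 to 5. The arrays lay close together in both dye orientations, and replicate 1 did not stand apart. The estimate was -2.24 ± 0.18 (SE), a 4.74-fold difference (limma adjusted p = 0.00623). Canton S replicates 2, 3 and 5 had -5.07, -2.94 and -1.68, and replicates 1 and 4 had no value (limma adjusted p = 0.0405).

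Next lowest was DAC010M17, in well M17 of plate 10, which had log2 ratios of -3.28, -1.56, -2.10, -1.80 and -1.93 on replicates 1 to 5. Replicate 1 was the lowest and the other 4 lay within a narrow range. The estimate was -2.09 ± 0.29 (SE), a 4.26-fold difference (limma adjusted p = 0.0114). All 5 Canton S arrays were below 0 as well, at -3.11, -4.38, -2.65, -2.73 and -1.52 (limma adjusted p = 0.00701). None of the 4 named probes kept its call without replicate 4, where limma adjusted p lay between 0.0508 and 0.0751. DAC010M17 also lost it without replicate 5 (limma adjusted p = 0.0679).

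Calls were more frequent among probes with missing values. Of the probes with values on all 5 Berlin arrays 6.32% were called, against 13.1% with values on 4 arrays and 13.0% with values on 3. All 52 calls among probes with 3 values were positive, and their median log2 ratio was 2.61, close to 2.76 for positive calls with values on all 5. Replicate 1 measured 199 of the 336 positive probes and the other arrays 305 to 331. Of the 3993 probes not called, replicate 1 measured 3649 and the other arrays 3582 to 3934. Positive calls with missing values thus most often lacked replicate 1, the wide array. With replicate 1 left out of the fit, 497 of 4208 tested probes were called, 350 of them among the 354. The part of replicate 1 in the higher called share of probes with missing values was not tested. The sources used here do not say what left a spot without a value, and its part in these shares was not tested.

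The 405 probes measured only on replicates 1, 2 and 3 leaned the other way. Their mean log2 ratios had a median of -0.88 and ran from -2.60 to 4.52. On every array that measured them 283 were below 0 and 9 above 0. A mean below -2 was seen for 14 of them and one above 2 for 1. They have no value with the male sample in Cy5, so sex and dye cannot be told apart for them. Kept in the fit without a dye term, they left 327 calls over 4752 probes, 326 of them among the 354.

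The called probes came from nearly all of the library. Calls were found on 39 of 41 printing plates, and negative calls on 13. Among the 39 plates with at least 50 tested probes, the called share had a median of 7.69% and ran from 0%, on plate 2, to 17.6%, on plate 13. Plates 1 and 2 had no call among 8 and 56 tested probes. By well row the share lay between 5.42% and 11.8%, and by well column between 3.27% and 10.6%. Of tested probes in a well directly beside a called one, 7.38% were called, close to the 8.14% of all tested probes.

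**Figure D4:**
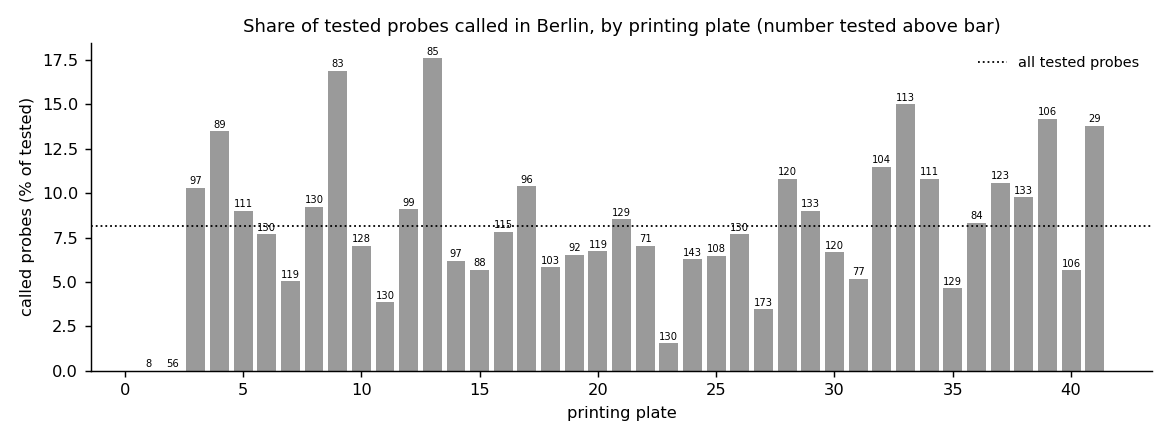
Share of tested probes called in the Berlin fit on each of the 41 printing plates, in percent, with the number tested above each bar. The dotted line marks the 8.14% of all tested probes. Plates 1 and 2 have no call and plate 13 has the highest share at 17.6%.

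The Canton S arrays hold separate RNA samples and were not used for the Berlin calls. Fitted by themselves with the same filter and dye term, they gave 277 calls among 5912 tested probes (4.69%), 272 positive (4.60%) and 5 negative (0.0846%). Of the 336 positive Berlin probes, 316 could be tested there. Their Canton S estimates had a median of 2.47 on the log2 scale against 2.64 for the same probes in Berlin. A positive estimate was found for 309 of the 316, and 236 were at 4-fold or more. Canton S called 202 of them by itself, which is 60.1% of the positive Berlin calls and 74.3% of the positive Canton S calls. No probe was called on opposite sides in the strains (0 probes).

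The negative Berlin calls were less uniform in Canton S. Of the 18, 14 could be tested there, and their median estimate was -0.29 against -1.66 in Berlin. A negative estimate was found for 9 of the 14, and 3 were called. The call count in Canton S rested on single arrays. Of the 354 Berlin calls, 205 were called on the same side with all 5 Canton S arrays, 1 when Canton S replicate 1 was left out, 0 when replicate 2 was and 1 when replicate 3 was. It was 275 when replicate 4 was left out and 144 when replicate 5 was. Leaving out replicate 2 or 3 left 1 array with the male sample in Cy3. In the fits without replicate 1, 2 or 3, the positive Berlin probes with a positive Canton S estimate were 274 of 276, 282 of 289 and 270 of 275. The negative Berlin probes with a negative Canton S estimate were 10 of 14, 5 of 11 and 10 of 12, so that they were a minority when replicate 2 was left out.

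**Figure D5:**
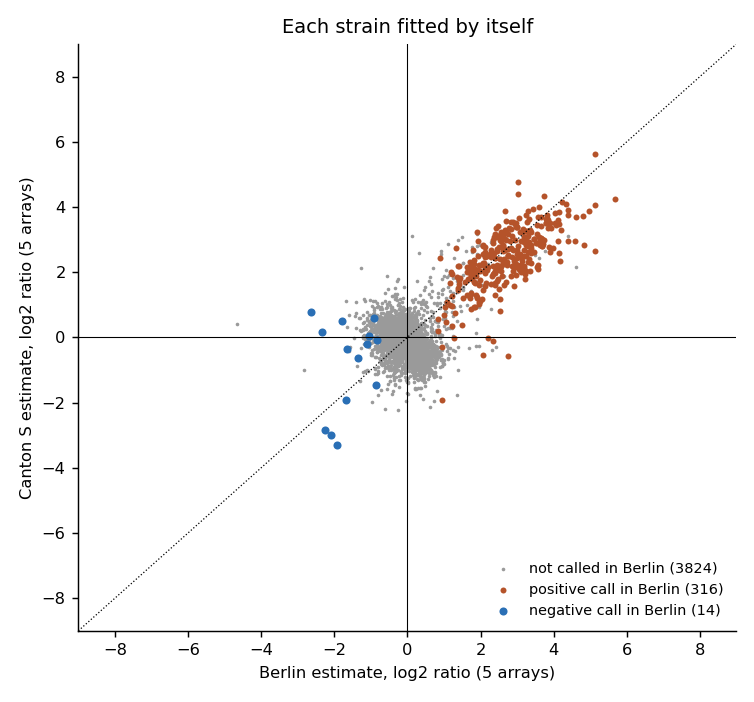
Estimated log2 ratio of each probe in Berlin (horizontal) and in Canton S (vertical), each strain fitted by itself on its 5 arrays, for the 4154 probes tested in both. Orange points are positive and blue points negative Berlin calls, grey points are not called in Berlin, and the dotted line marks equal estimates. Of the 316 positive calls 309 lie above 0 in Canton S, while the 14 negative calls lie on both sides.

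The difference between the strains was tested in a joint fit of all 10 arrays. None of 4154 probes passed (0 calls in limma, 0%), with a smallest adjusted p of 0.854 and 151 probes at an unadjusted p below 0.05. Among the positive Berlin calls, 11 of 316 (3.48%) had an unadjusted p below 0.05, against 3.64% of all tested probes. Among the negative calls it was 4 of 14. The median Berlin minus Canton S difference of the positive calls was 0.23 on the log2 scale, and 196 of 316 were higher in Berlin. Calls made on the Berlin values lean towards a larger Berlin estimate. The typical 95% interval of a strain difference reached 1.31 on the log2 scale to either side, or 2.49-fold before any adjustment for the number of probes.

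Some Berlin calls had little or no counterpart measured in Canton S. Of the 192 tested Berlin probes with fewer than 3 Canton S values, 24 were called (12.5%), 20 of them positive, against 7.94% of the 4155 probes with 3 or more. Among these, 3 called probes had no Canton S value at all, DAC032M09 being one of them. No strain comparison could be made for them.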

How the data were processed

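The log2 ratios are the values the authors deposited, with a separate value for each probe on each array. Per the submitters' processing notes limma was used, with no version or role given. The sources used here do not give the scanner, background correction, normalization, centring, spot filter or log base, and base 2 was assumed. There are no channel intensities, so depth and brightness are unknown and the number of arrays limits the precision.

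Control spots (32) were left out. For the 5 Berlin arrays, lmFit and eBayes of limma 3.58.1 were run under R 4.3.3, with a mean tested against 0 and the male sample's dye coded -1 and 1. Probes needed at least 3 values and both orientations, and a missing value drops that array for that probe. P-values were adjusted with the Benjamini-Hochberg method over all tested probes and called below 0.05. Canton S was fitted likewise, and the strain difference with a joint dye term. The fits were tried on simulated data whose noise was equally wide on every array, so the wide spread of replicate 1 was not part of that trial. Figures were drawn with matplotlib 3.10.9.

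Named probes are the highest and the lowest 2 among calls measured on all 5 arrays with one sign. The members and rules were chosen with earlier results of these data known. No marker list could be run, since probes have no gene names here. Arrays that share a replicate number across strains had correlations of their deviations from the strain mean of -0.59, -0.47, -0.05, -0.12 and 0.48, so the numbers were not taken as pairs.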

Additional observations from a re-analysis of the deposited data

Results flagged for a closer look

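For 11 measures of the 5 Berlin arrays, named probes included, the arrays were screened for an array far from the others, and 3 held one, each time replicate 1. Chance gives about 1 in 20 such groups where groups are independent and not selected. These measures share the same 5 arrays, and the named probes were picked on their values there, so that rate does not apply here. The median log2 ratio of replicate 1 was -0.28, against -0.05 to 0.0012 on the other arrays. Its median absolute deviation was 1.90, against 0.37 to 0.65. Its ratio for DAC032M09 was 8.37, against 4.07 to 5.07, and the estimate without it was 4.53.

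Of 32 control spots, which entered no comparison, 6 held a value on a Berlin array and 3 held one on all 5. DACControlB05 had a mean log2 ratio of -2.36, from -2.66 to -1.93 over 5 arrays. DACControlC05 averaged -2.37, from -3.12 to -1.64, and DACControlD05 averaged -2.42, from -3.57 to -1.16. All 3 were negative on all 5 arrays, in both dye orientations. DACControlA05 had a value of -2.51 on replicate 2 alone. DACControlB08 and DACControlC08 averaged -0.29 and -0.31 over 2 arrays each. The sources used here do not say what the control spots contain.

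The lopsidedness of large ratios differed between the arrays of the strains. The share of probes above a log2 ratio of 2 minus the share below -2 was 5.44 ± 1.16 percentage points on the Berlin arrays (SD, n = 5). On the Canton S arrays it was -1.94 ± 5.59 (SD, n = 5), which is 7.38 lower. By array it was -3.07, 0.62, 3.32, 0.49 and -11.1 on Canton S replicates 1 to 5, so replicates 1 and 5 alone were negative. Both had the male sample in Cy5, as had replicate 4. The test below took no account of dye, which is divided differently in the strains. Every Berlin array, from 3.76 to 6.34, lay above every Canton S array, from -11.1 to 3.32 (exact permutation test of all 252 splits, two-sided p = 0.00794, adjusted for the 2 exact tests of this share p = 0.0159). The mean of the median absolute deviation also differed, at 0.77 ± 0.64 in Berlin and 1.37 ± 0.48 in Canton S (SD, n = 5 each). Its part was not tested beyond scaling. Once every array was scaled to the same median absolute value the difference was 4.34 (exact permutation p = 0.0635). With every array instead centred on its median it was 11.9 (exact permutation p = 0.00794). The comparison was chosen after seeing the data.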

How the results depend on the processing

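The 354 Berlin calls (336 positive and 18 negative) became 743 once every array was scaled to the same median absolute value (265 negative) and 686 with array weights (213 negative). They became 120 at a threshold of 0.01 (118 and 2) and 189 over the 3165 probes with values on all 5 arrays (177 positive), where fewer probes were tested. They were 0 on both sides in limma with the values read as Cy5 over Cy3, with 312 probes at an unadjusted p below 0.05. In that reading the female over male log2 ratio of DAC032M17 is -0.13 (limma adjusted p = 0.949). Negative calls were 10 in the test against a 1.2-fold change and 6 in the joint fit of all 10 arrays. Leaving out single arrays gave 32 to 497 calls, 32 to 423 of them positive and 0 to 74 negative. The dye term had 422 calls with the arrays scaled and 0 in limma under the other 8 alternatives, where 39 to 954 probes had an unadjusted p below 0.05. Leaving out single Canton S arrays gave 0 to 275 Berlin calls called there on the same side, 270 to 306 positive ones with the same sign and 5 (of 11) to 10 (of 14 or 12) negative ones. The strain difference of the excess above 2 was 4.34 percentage points with the arrays scaled and 11.9 with the arrays centred on their median. Except where stated, the cause was not tested. No dye term, centring, robust empirical Bayes, at least 4 values and keeping probes of 1 orientation gave 301 to 360 calls. For the strain difference limma called 0 probes in each of 15 alternatives, where 39 to 524 probes had an unadjusted p below 0.05. Among these, the fit with a replicate block in place of the dye term called 0 of 4126 probes, and 76 had an unadjusted p below 0.05. Alternatives on Canton S values, on the dye term and on the excess above 2 were chosen after seeing the data. No channel intensities are in the table, so signal over background could not be assessed.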

Other observations

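Probes that were not called in Berlin more often had opposite signs in the strains. Of 3824 such probes tested in both, 1451 (37.9%) had estimates of the same sign in Berlin and Canton S, against 318 of 330 called ones (96.4%). By the channel labels, Cy5 marks the male sample on 2 arrays in Berlin and on 3 in Canton S, while the design text gives 3 for each strain.

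The 2330 probes with 1 or 2 Berlin values entered no test. They held 3221 values, of which 279 lay above a log2 ratio of 2 and 148 below -2.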
